A study of Saccharomyces cerevisiae with 72 samples.

Results

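Budding yeast that lacked the repressor Crt1 were compared with wild-type yeast in their transcript response to methyl methanesulfonate (MMS), an agent that methylates DNA. The comparison took the 4 arrays labelled crt1 and the 4 labelled wt, 8 of the 72 arrays of the series and 8 of the 52 arrays of the table that holds 13 strains. Each value was the log2 ratio of MMS-treated over untreated cells of 1 strain, so a value of 1 is a 2-fold rise under MMS, and the measure compared was crt1 minus wt in that ratio.

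Ribonucleotide reductase makes the deoxyribonucleotides that DNA synthesis and repair consume. In budding yeast its large subunit is Rnr1, with Rnr3 as a large subunit made mainly after DNA damage, and its small subunit pairs Rnr2 with Rnr4. Crt1, the product of RFX1, binds upstream of RNR2, RNR3 and RNR4 and recruits the corepressor Tup1-Ssn6. After DNA damage the kinases Mec1, Rad53 and Dun1 act in turn on Crt1, which then leaves its target promoters.

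The crt1 strain carried a deletion of CRT1 in the BY4741 background, a haploid laboratory strain of mating type a, and wt was BY4741 itself. A culture of each strain at 30 °C was divided, and one portion received MMS for 1 h while the other did not; the labels give 0.03% MMS in one place and 0.033% in another. Each strain had 2 replicates, each on 2 arrays of opposite dye orientation, with MMS-treated RNA in Cy5 on one and in Cy3 on the other. The 11 other strains of the table had the same background and treatment: the single deletions dun1, sml1, tel1, chk1, ste11, mec1 and rad53, and 4 strains with 2 genes deleted, chk1dun1, chk1rad53, dun1rad53 and tel1mec1. The labels do not say whether the strains without Mec1 or Rad53 also lacked SML1. The labels do not say whether the replicates came from separate cultures, so p-values reflect only how these samples spread, which may be technical.

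The table held 5594 named genes. Both replicates of each strain resembled each other over genes (Pearson r 0.855 between crt1 replicates and 0.858 between wt replicates, as descriptions across genes). The 2 arrays of a replicate did so less evenly: r was 0.855 for crt1 replicate 1 and 0.223 for crt1 replicate 2, against 0.221 for wt replicate 1 and 0.811 for wt replicate 2. The crt1 replicate 2 array with MMS in Cy5 had the widest spread over genes of the 52 (SD 0.703). Crt1 and wt arrays shared no slide, so slide and strain can be told apart only through sml1, which shared a slide with crt1 replicate 1 and 2 slides with wt replicate 2. With the slide as a fixed block, crt1 minus wt thus rests on crt1 replicate 1 and wt replicate 2.

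The ratio of RFX1 (YLR176C), the deleted gene itself, was -0.36, -0.05, -0.09 and -0.09 on the 4 crt1 arrays. A ratio within a strain does not show whether the transcript was there, and the position of the probe relative to the deletion was not given, so these values do not check the label.

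Without Crt1, 14 genes had a lower response to MMS than in wt and 1 a higher one. Of all genes tested, 0.25% were called lower and 0.0179% higher, 0.268% together (limma, Benjamini-Hochberg adjusted p under 0.05, the rule for every call below); 473 genes had an unadjusted p under 0.05. The 2 largest differences were those of RNR3 and HUG1, which in wt were the genes with the highest responses and in crt1 showed no response that passed the test. Of the 14 lower genes, 7 rose in wt and were not called in crt1, 4 rose in wt and fell in crt1, 2 rose in both and 1 fell in both; over all genes, 26.7% rose and 23.9% fell in crt1, against 26.8% and 25.4% in wt. Of the 4 genes with opposite responses, ATR2 alone kept both calls whichever replicate of the 2 strains was left out. Since each ratio is taken within a strain, a higher untreated level and a lower treated level in crt1 cannot be told apart.

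**Figure D1:**
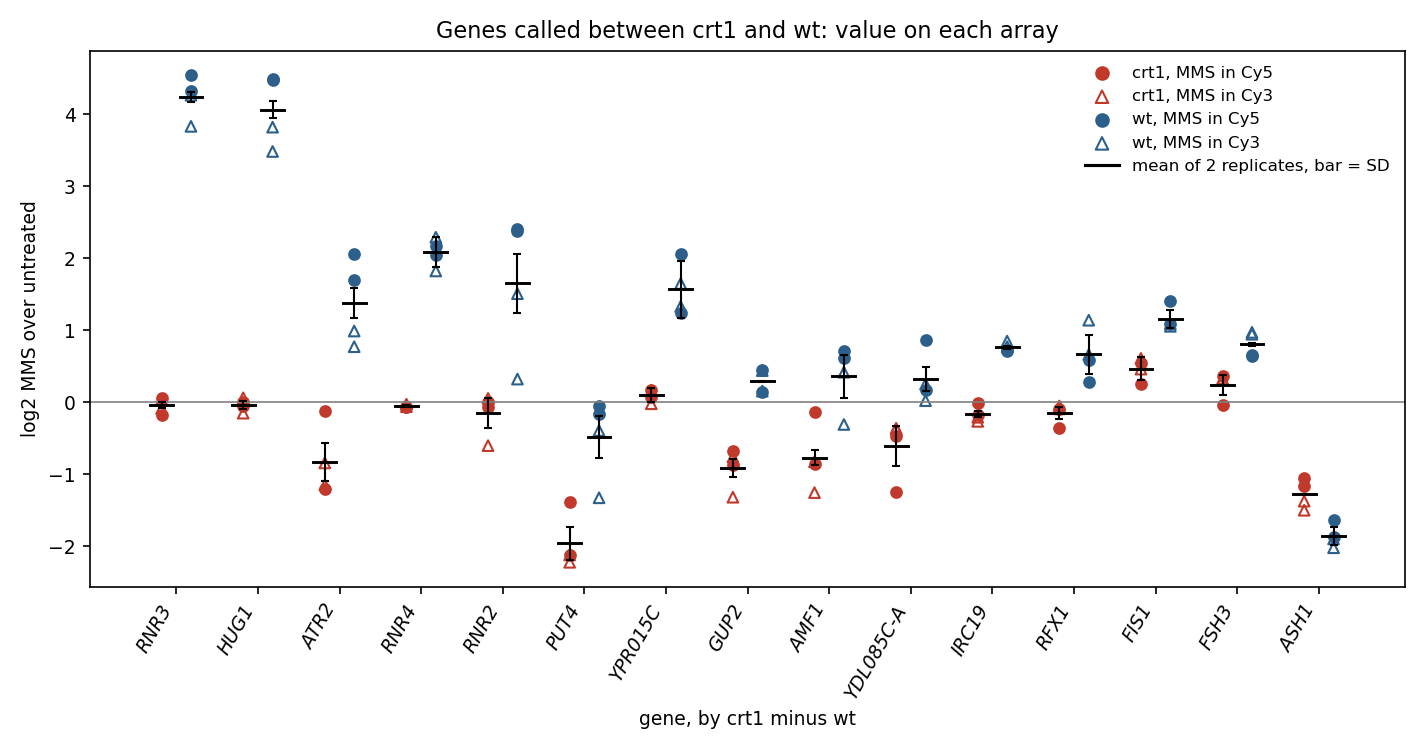
Log2 ratio of MMS-treated over untreated cells (vertical axis) on each array for the 15 genes called between crt1 (red) and wt (blue), ordered by crt1 minus wt; filled circles have MMS in Cy5, open triangles MMS in Cy3, black lines are means of 2 replicates and bars their SD. RNR3 and HUG1 lie near 0 on all 4 crt1 arrays and between 3.48 and 4.55 on the wt arrays; AMF1 is the one gene whose arrays overlap between the strains.

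RNR3 (YIL066C), the damage-inducible large subunit, had ratios of -0.18, 0.04, 0.06 and -0.09 on the crt1 arrays, against 4.32, 4.27, 4.55 and 3.83 on the wt arrays. No array of one strain came near the range of the other. The mean was -0.041 ± 0.038 in crt1 and 4.24 ± 0.074 in wt (SD, n = 2 each), a difference of -4.28 (SE 0.147, adjusted p 3.83e-14), or a 19.45-fold smaller ratio. RNR3 was 1 of the 7 genes that rose in wt with no called response in crt1 (adjusted p 0.768 for its own response in crt1).

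RNR2 (YJL026W), which encodes the catalytic small subunit, had ratios of -0.06, 0.05, 0.01 and -0.60 on the crt1 arrays, against 2.38, 1.51, 2.40 and 0.32 on the wt arrays. The lowest wt array was above the highest crt1 array, but wt arrays with MMS in Cy3 lay below those with MMS in Cy5. The difference was -1.80 (SE 0.278, adjusted p 0.00142). It lost its call without crt1 replicate 2 (-1.66, adjusted p 0.054), without wt replicate 1 (-1.51, adjusted p 0.0779) and on the arrays with MMS in Cy3 alone (-1.19, adjusted p 0.677).

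RNR4 (YGR180C), which encodes the partner of Rnr2 in the small subunit, had ratios of -0.06, -0.06, -0.07 and -0.03 on the crt1 arrays, against 2.18, 2.29, 2.05 and 1.82 on the wt arrays. The groups were far apart and both were tight, with means of -0.054 ± 0.012 in crt1 and 2.09 ± 0.21 in wt (SD, n = 2 each). The difference was -2.14 with an SE of 0.424 and an adjusted p of 0.0244. The fit pools the spread of all 13 strains, and RNR4 varied widely between replicates of ste11 (SD 1.47) and sml1 (SD 0.914). Fitted on the crt1 and wt arrays alone the same difference had an adjusted p of 1.29e-05. With any one of the 4 replicates left out the difference lay between -2.29 and -1.99 and was not called. With the slide as a fixed block it was -0.71 and not called. That fit linked crt1 replicate 1 to wt replicate 2 through sml1, whose RNR4 replicates were 0.90 and 2.19.

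RNR1 (YER070W), the main large subunit, rose in both strains. Its ratios were 1.13, 0.88, 0.75 and 0.43 on the crt1 arrays, against 1.54, 1.51, 1.97 and 1.54 on the wt arrays. The response was called in crt1 (0.80 ± 0.29, adjusted p 5.27e-04) and in wt (1.64 ± 0.17, adjusted p 1.55e-07; SD, n = 2 each). Every crt1 array was below every wt array, as for 1.54% of all genes on these arrays in either direction, and the difference of -0.84 (95% interval -1.33 to -0.36) did not pass the test (adjusted p 0.276).

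HUG1 (YML058W-A), a small damage-induced protein that inhibits ribonucleotide reductase, behaved like RNR3. Its ratios were -0.05, 0.06, -0.001 and -0.15 on the crt1 arrays, against 4.47, 3.82, 4.49 and 3.48 on the wt arrays. The difference was -4.10 (SE 0.136, adjusted p 3.83e-14), a 17.2-fold smaller ratio. Of the other regulators of the enzyme, neither the gene of the inhibitor Sml1 nor that of the nuclear anchor Wtm1 had a called response in either strain: SML1 (YML058W) averaged -0.008 in crt1 and -0.094 in wt, WTM1 (YOR230W) 0.031 in crt1 and 0.017 in wt. DIF1 (YLR437C), which promotes nuclear import of the small subunit, had ratios of -0.60, -0.51, 0.21 and -1.11 on the crt1 arrays, against 0.36, -0.96, 0.22 and -0.03 on the wt arrays. It fell in crt1 (-0.50 ± 0.076, adjusted p 2.40e-04) and averaged -0.10 ± 0.28 in wt, where it was not called (SD, n = 2 each). The difference of -0.40 did not pass the test (adjusted p 0.445). The crt1 replicate 2 array with MMS in Cy5 was the one crt1 array above 0: without it the response in crt1 was -0.83 and the difference -0.73 (adjusted p 0.0777), and on the arrays with MMS in Cy5 alone the response in crt1 was not called (-0.20, adjusted p 0.347).

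RFX1, which Crt1 is known to repress as well, completed the list of 5 Crt1-repressed genes, all of which were called lower, as were 0.25% of all genes. Its ratio averaged -0.15 ± 0.082 in crt1, where the gene is deleted, and 0.67 ± 0.27 in wt (SD, n = 2 each), a difference of -0.82 (adjusted p 0.00142) which cannot be read as regulation. Without wt replicate 1 it was -0.62 and not called (adjusted p 0.0779), and with RNR2 and RNR4 also not called in that fit, RNR3 and HUG1 were the 2 of the 5 left. The median difference over the 5 genes was -2.14, against 0.017 over all genes. Among the 8 genes of the Tup1-Ssn6 corepressor and related repressors none was called different, and the median difference was -0.020. TUP1 (YCR084C) averaged -0.47 in crt1 and -0.36 in wt.

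The other 10 called genes included 9 that had a lower response in crt1. ATR2 (YMR279C), a transporter of the major facilitator family, gave the largest difference among them. Its ratios were -1.20, -0.84, -0.13 and -1.15 on the crt1 arrays, against 1.69, 0.77, 2.06 and 0.99 on the wt arrays. All 4 crt1 arrays were below 0 and all 4 wt arrays above it, and both responses were called, in opposite directions. The difference was -2.21 (SE 0.142, adjusted p 3.28e-09), a 4.62-fold smaller ratio.

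YPR015C, a zinc finger protein of unknown role, had ratios of 0.17, 0.17, 0.07 and -0.02 on the crt1 arrays, against 1.24, 1.33, 2.05 and 1.65 on the wt arrays. Its response was called in wt and not in crt1, and the difference was -1.47 (SE 0.154, adjusted p 1.09e-05). IRC19 (YLL033W), named for raised spontaneous recombination foci in its mutant, had ratios of -0.18, -0.21, -0.01 and -0.27 on the crt1 arrays, against 0.73, 0.77, 0.71 and 0.85 on the wt arrays. It too had no called response in crt1, though without the crt1 replicate 2 array with MMS in Cy5 it had a called fall there (-0.23, adjusted p 0.0267). The difference was -0.93 (SE 0.116, adjusted p 1.29e-04).

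PUT4 (YOR348C), the proline permease, fell in both strains and fell further in crt1. Its ratios were -2.12, -2.12, -1.38 and -2.22 on the crt1 arrays, against -0.06, -1.33, -0.16 and -0.39 on the wt arrays. The highest crt1 array and the lowest wt array lay close together without overlap, and the other arrays were well apart. The difference was -1.48 (SE 0.227, adjusted p 0.00142), and without wt replicate 2 it was -1.27 and no longer called (adjusted p 0.0758). The fall in wt (-0.49) was not called without wt replicate 1 (-0.28, adjusted p 0.328), on the arrays with MMS in Cy5 alone (-0.11, adjusted p 0.742) or with arrays scaled to 1 spread (-0.33, adjusted p 0.266).

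GUP2, AMF1 and YDL085C-A had, like ATR2, a called fall in crt1 and a called rise in wt. In these 3 the rise in wt lost its call when a wt replicate was left out. For GUP2 the size of the rise hardly moved, with wt replicates at 0.29 and 0.30. GUP2 (YPL189W), a homologue of the glycerol uptake protein Gup1, averaged -0.91 ± 0.13 in crt1 and 0.30 ± 0.007 in wt (SD, n = 2 each). AMF1 (YOR378W), a low-affinity ammonium transporter, averaged -0.77 ± 0.10 in crt1 and 0.36 ± 0.29 in wt. Single arrays of AMF1 overlapped, since the crt1 replicate 2 array with MMS in Cy5 stood at -0.14 and the wt replicate 1 array with MMS in Cy3 at -0.31. YDL085C-A, a small uncharacterised protein, averaged -0.61 ± 0.27 in crt1 and 0.32 ± 0.17 in wt. The differences were -1.20 for GUP2, -1.13 for AMF1 and -0.93 for YDL085C-A, with adjusted p of 6.18e-05, 3.44e-04 and 1.56e-04, and these were called whichever replicate was left out. With the slide as a fixed block none of the 3 was called. AMF1 was not called with MMS in Cy3 alone (adjusted p 0.0979) or in Cy5 alone (adjusted p 0.104). YDL085C-A was not called with MMS in Cy3 alone (-0.50, adjusted p 0.677) or in the fit of crt1 and wt arrays alone (adjusted p 0.0759). The rise of GUP2 in wt was not called without wt replicate 1 (adjusted p 0.104) or wt replicate 2 (0.127), that of AMF1 without wt replicate 2 (0.15, adjusted p 0.429) and that of YDL085C-A without wt replicate 1 (0.21, adjusted p 0.156).

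FIS1 (YIL065C), a mitochondrial fission protein, and FSH3 (YOR280C), a serine hydrolase, rose in both strains and less in crt1. FIS1 averaged 0.47 ± 0.16 in crt1 and 1.16 ± 0.13 in wt (SD, n = 2 each), a difference of -0.69 (adjusted p 0.00642). FSH3 averaged 0.24 ± 0.14 in crt1 and 0.80 ± 0.016 in wt, a difference of -0.56 (adjusted p 0.00384). The rise of FSH3 in crt1 was not called without crt1 replicate 2 (0.14, adjusted p 0.228), on the arrays with MMS in Cy5 alone (adjusted p 0.33) or in the fit of crt1 and wt arrays alone (adjusted p 0.121). ASH1 (YKL185W), a repressor that acts in daughter cells at the end of mitosis, was the one gene called higher: its ratios were -1.17, -1.37, -1.05 and -1.50 on the crt1 arrays, against -1.88, -2.02, -1.64 and -1.90 on the wt arrays. It fell in both strains and fell less in crt1, by 0.59 (SE 0.107, adjusted p 0.0100). FIS1 lost its call without crt1 replicate 2 or wt replicate 2, FSH3 without wt replicate 2, and ASH1 without crt1 replicate 2 or wt replicate 1.

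FIS1 is the neighbour of RNR3 in the genome. Of the neighbours on either side of the 15 called genes, RNR3 and FIS1 were the one pair that was called together. The 25 measured neighbours that were not called had differences between -0.62 and 0.26 with a median of -0.021, and 14 were below 0. The lowest, named after its value was seen, was YLR177W, next to the deleted RFX1, at -0.08 in crt1 and 0.53 in wt (difference -0.62, adjusted p 0.283). HUG1 lies beside SML1, whose response was not called.

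The count of 15 called genes moved with single replicates and arrays. It was 82 without crt1 replicate 1 (25 higher, 57 lower) and 14, 13 and 12 without crt1 replicate 2, wt replicate 1 and wt replicate 2. Of the 15 genes, 14 were also called without crt1 replicate 1, and 11 in each of the other fits. Without the crt1 replicate 2 array with MMS in Cy5 there were 15 calls, of which 14 were in the set, and without that array and wt replicate 1 there were 11, all in the set. With the slide as a fixed block 4 genes remained: RNR3 at -3.94 (adjusted p 1.40e-08), HUG1 at -4.09 (3.04e-08), ATR2 at -2.60 (1.87e-05) and YPR015C at -1.85 (0.00159). That fit rested on crt1 replicate 1 and wt replicate 2, linked through sml1. On the slide that held both crt1 replicate 1 and sml1, crt1 minus sml1 was -4.29 for RNR3, -4.89 for HUG1, -2.60 for ATR2, -1.52 for YPR015C, -1.25 for RNR2 and -0.96 for RNR4. On the slides that held sml1 and wt, sml1 minus wt was 0.35 for RNR3, 0.81 for HUG1, 0.003 for ATR2, -0.33 for YPR015C, -0.062 for RNR2 and 0.26 for RNR4.

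**Figure D2:**
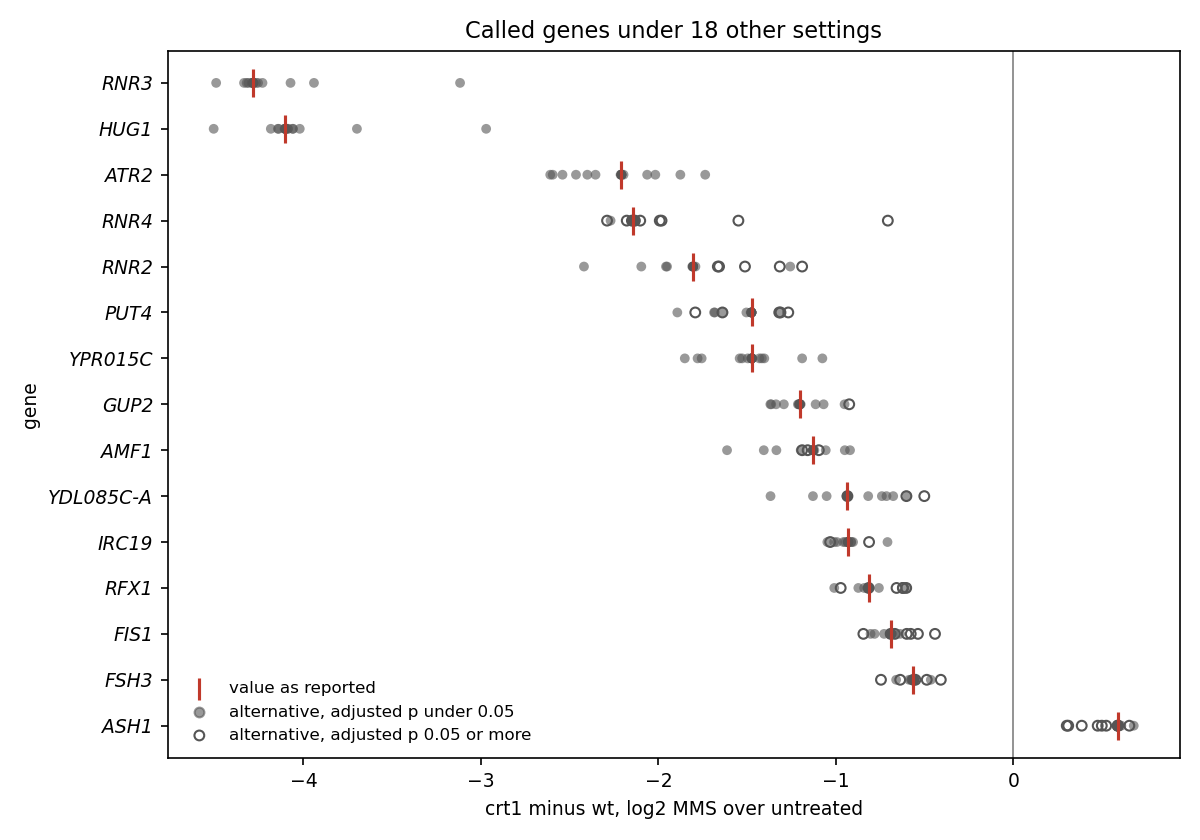
Crt1 minus wt in log2 MMS over untreated (horizontal axis) for the 15 called genes as reported (red mark) and under 18 other settings (filled, adjusted p under 0.05; open, 0.05 or more). RNR3, HUG1, ATR2 and YPR015C were called under all 18, RNR4 and ASH1 under 8 each, and no gene changed sign.

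The rest of the response to MMS was present in crt1. In crt1, 1495 genes rose and 1336 fell, 50.6% in all, and 255 of them changed by at least 2-fold. In wt, 1498 rose and 1419 fell, 52.1% in all, and 273 changed by at least 2-fold. Of the 273 genes, 266 were called in the same direction in crt1 (97.4%), 1 in the opposite direction and 6 were not called. The 7 that were not shared were RNR3, HUG1, RNR4, RNR2, YPR015C, ATR2 and PAI3. Of these, PAI3 (YMR174C), an inhibitor of the vacuolar proteinase A, averaged 0.32 ± 0.87 in crt1 and 1.06 ± 0.39 in wt (SD, n = 2 each), with a difference that did not pass the test (-0.73, adjusted p 0.462).

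Shared direction does not show equal size. For 230 of the 273 genes (84.2%) and for 5506 of all 5594 (98.4%) the 95% interval of the difference lay within 2-fold either way, with a median half-width of 0.28 over all genes. The genes that changed 2-fold in the same direction in both strains numbered 194, which is 71.1% of the 273 in wt and 76.1% of the 255 in crt1. A single gene fell by at least 2-fold in crt1 with no called response in wt. FRE7 (YOL152W), a copper-responsive reductase, averaged -1.05 ± 0.17 in crt1 and -0.37 ± 0.37 in wt, and the difference did not pass the test (adjusted p 0.639). Its ratios on the crt1 arrays were -2.5, 0.1, -0.5 and -1.4, so the dye-swap arrays of replicate 1 disagreed, which the SD of the replicate means does not show. PAI3 and FRE7 were named after their values were seen.

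**Figure D3:**
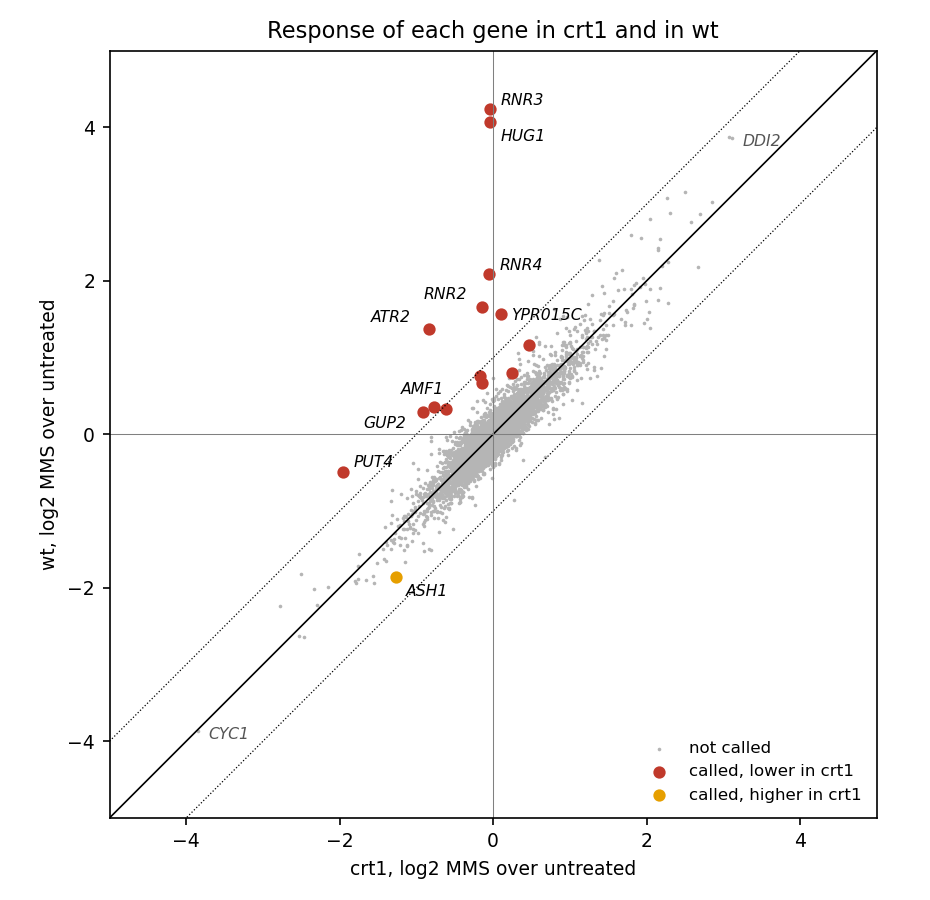
Mean log2 MMS over untreated of each of 5594 genes in crt1 (horizontal axis) and in wt (vertical axis), 2 replicates each; the solid line marks equal responses and the dotted lines a 2-fold difference. Most genes lie along the solid line, and RNR3, HUG1, RNR4, RNR2 and YPR015C stand near 0 on the crt1 axis and between 1.57 and 4.24 on the wt axis.

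None of the 5 genes with the highest responses in crt1 was on the list of Crt1-repressed genes. DDI2 (YNL335W) and DDI3 (YFL061W), which encode identical cyanamide hydratases that one probe may not separate, averaged 3.12 ± 0.44 and 3.08 ± 0.38 in crt1, against 3.86 ± 0.14 and 3.88 ± 0.11 in wt (SD, n = 2 each). GTT2 (YLL060C), a glutathione transferase, averaged 2.85 ± 0.70 in crt1 and 3.02 ± 0.23 in wt. ARG1 (YOL058W) of arginine synthesis averaged 2.70 ± 0.14 in crt1 and 2.87 ± 0.27 in wt, and GRE2 (YOL151W), a methylglyoxal reductase, 2.68 ± 0.051 in crt1 and 2.18 ± 0.024 in wt. The lowest was CYC1 (YJR048W), iso-1-cytochrome c, at -3.85 ± 0.31 in crt1 and -3.86 ± 0.78 in wt. It was followed by the regulator SFG1 (-2.78 in crt1, -2.24 in wt), CYB5 for cytochrome b5 (-2.54 in crt1, -2.63 in wt), SPS4 (-2.50 in crt1, -1.82 in wt) and NDE1 for external NADH dehydrogenase (-2.46 in crt1, -2.64 in wt). None of these 10 genes was called different between the strains.

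All 10 genes listed as MMS-induced outside the checkpoint, such as DDI2, the sulfite pump gene SSU1 and the alkyladenine glycosylase gene MAG1, rose in both strains. Of all genes, 26.7% rose in crt1 and 26.8% in wt. The list was made of MMS-induced genes, with earlier results of these data known, so the rise itself is no independent result. The median response of the 10 was 2.29 in crt1 and 2.95 in wt. In 9 of the 10 the mean was lower in crt1, with a median difference of -0.61 against 0.017 over all genes. None passed the test, where 0.268% of all genes did. DDI2 shows the spread behind this: its ratios were 3.26, 3.59, 3.07 and 2.54 on the crt1 arrays, against 4.38, 3.15, 4.73 and 3.20 on the wt arrays, where the values with MMS in Cy5 were the higher ones and the values with MMS in Cy3 overlapped crt1. SSU1 (YPL092W) averaged 2.50 ± 0.31 in crt1 and 3.16 ± 0.079 in wt, and MAG1 (YER142C) 0.91 ± 0.21 in crt1 and 1.20 ± 0.16 in wt (SD, n = 2 each).

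Of 18 checkpoint and 37 DNA repair genes measured none was called different, where 0.268% of all genes were, so the absence of calls does not set these genes apart. Of the checkpoint genes 4 rose and 2 fell in crt1, against 6 and 4 in wt, beside 26.7% that rose and 23.9% that fell in crt1 over all genes, and the median difference was -0.017. DUN1 (YDL101C), the kinase that acts on Crt1, rose by 1.44 ± 0.081 in crt1 and by 1.55 ± 0.12 in wt, and RAD53 (YPL153C) by 0.36 ± 0.011 in crt1 and by 0.59 ± 0.12 in wt (SD, n = 2 each). Of the repair genes 17 rose and 2 fell in crt1, against 20 and 2 in wt, with a median difference of -0.036. RAD54 (YGL163C), a recombination motor, averaged 0.98 in crt1 and 1.00 in wt, and DIN7 (YDR263C), a mitochondrial nuclease, 1.21 in crt1 and 1.33 in wt.

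The MBF genes, which are switched on at the G1/S transition, rose in 18 of 28 in crt1 and in 18 of 28 in wt, and 3 fell in each. Over all genes, 26.7% rose and 23.9% fell in crt1, against 26.8% and 25.4% in wt. The median difference of the MBF genes was -0.038 and no member was called different, where 0.268% of all genes were. POL30 (YBR088C), the sliding clamp, averaged 1.22 ± 0.17 in crt1 and 1.15 ± 0.014 in wt (SD, n = 2 each), and RFA1 (YAR007C), of the single-strand binding complex, 1.13 in crt1 and 1.03 in wt. PLM2 (YDR501W), a forkhead-associated domain protein, had ratios of 1.20, 1.55, 1.16 and 1.23 on the crt1 arrays, against 1.89, 1.77, 1.76 and 1.87 on the wt arrays. The groups did not overlap, as for 1.54% of all genes on these arrays in either direction. The difference of -0.54 did not pass the test (adjusted p 0.342).

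In the lists of stress and protein quality genes most members rose in crt1, and in wt most did in each list but the chaperones. No member was called different, where 0.268% of all genes were. The shares over all genes were 26.7% that rose and 23.9% that fell in crt1, against 26.8% and 25.4% in wt. All 34 proteasome genes rose in each, with medians of 0.98 in crt1 and 0.89 in wt. Of 23 Yap1 oxidative stress genes 22 rose in each, with medians of 0.91 in crt1 and 1.04 in wt. The Msn2 and Msn4 general stress genes rose in 26 of 28 in crt1 and 28 of 28 in wt, with medians of 1.16 and 1.45. Chaperone genes rose in 15 of 22 in crt1, with 1 that fell, and in 11 of 22 in wt, with medians of 0.44 and 0.27. The heat shock protein genes SSA4 (YER103W) and HSP42 (YDR171W) averaged 2.04 and 1.81 in crt1, against 1.89 and 1.83 in wt.

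In the lists of mitotic, histone, ribosome biogenesis and cell separation genes most members fell in both strains. The shares over all genes were 23.9% that fell and 26.7% that rose in crt1, against 25.4% and 26.8% in wt. Of 19 genes of the mitotic CLB2 cluster 18 fell in crt1 and 17 in wt, with medians of -0.90 and -1.02. Histone genes fell in 9 of 10 in crt1 and 8 of 10 in wt, with medians of -0.70 and -0.76. Ribosome biogenesis genes fell in 45 of 51 in crt1 and 47 of 51 in wt, with medians of -0.56 and -0.66. The M/G1 genes of cell separation, of which ASH1 is a member, fell in 13 of 16 in crt1, with 1 that rose, and in 15 of 16 in wt. Of the 16, 15 had a higher mean in crt1, with a median difference of 0.23 against 0.017 over all genes. ASH1 alone passed the test, where 0.268% of all genes did. EGT2 (YNL327W), a cell wall endoglucanase of the same list, averaged -1.56 ± 0.028 in crt1 and -1.94 ± 0.42 in wt (SD, n = 2 each; difference 0.38, adjusted p 0.647).

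In the metabolic and cell type lists no member was called different between crt1 and wt, where 0.268% of all genes were. The counts of responses below stand beside 26.7% of all genes that rose and 23.9% that fell in crt1, against 26.8% and 25.4% in wt. Amino acid genes of Gcn4 rose in 24 of 40 and fell in 2 in crt1, against 20 and 6 in wt, with HOM3 (YER052C), of threonine and methionine synthesis, at 1.41 in crt1 and 0.86 in wt. Respiratory chain genes fell in 20 of 34 in crt1 and 18 of 34 in wt, and ergosterol genes in 16 of 25 in crt1 and 20 of 25 in wt, where 1 rose. Iron regulon genes rose in 13 of 24 and fell in 3 in each strain. Heme and oxygen genes rose in 4 of 20 in each and fell in 8 in crt1 and 7 in wt. Phosphate genes rose in 2 of 17 in each and fell in 7 in crt1 and 10 in wt, with PHO5 (YBR093C), the acid phosphatase, at -2.30 in crt1 and -2.23 in wt. Hexose transporters rose in 1 of 15 and fell in 6 in crt1, against 5 and 7 in wt. The a-cell and pheromone genes rose in 3 of 23 in each and fell in 6 in crt1 and 7 in wt, the 4 alpha-cell genes rose in 1 in each and fell in 1 in crt1, and the meiosis genes rose in 8 of 17 in crt1 and 6 of 17 in wt and fell in 2 in each.

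**Figure D4:**
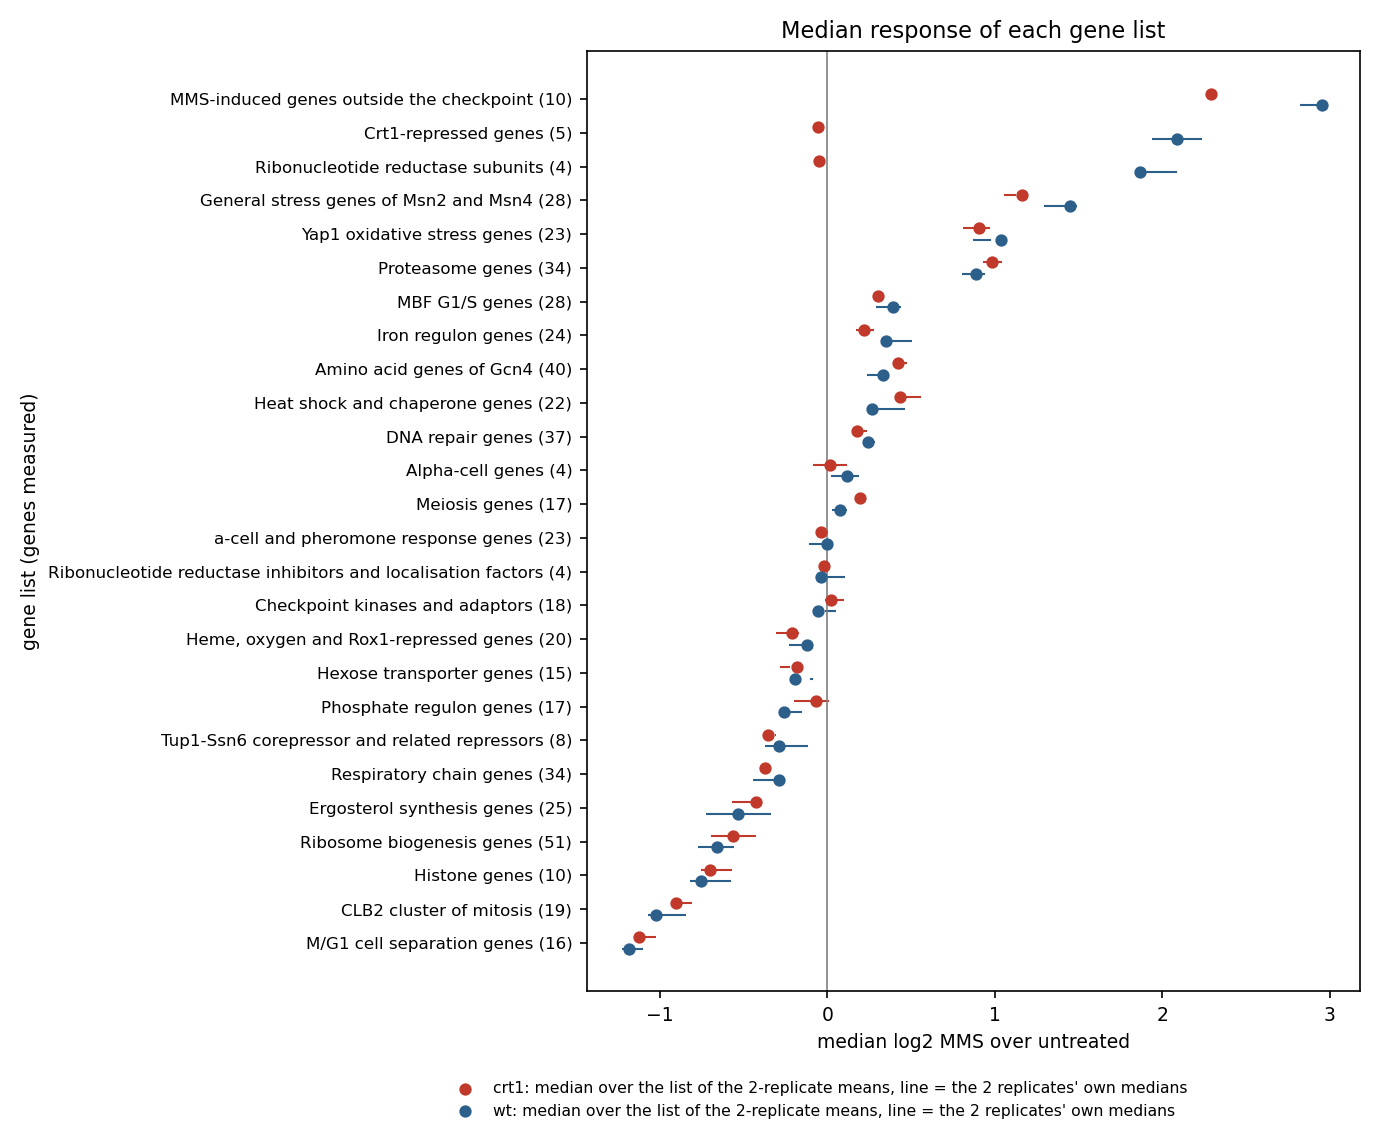
Median log2 MMS over untreated (horizontal axis) over each of 26 gene lists (number of genes measured in brackets) in crt1 (red) and in wt (blue); dots are medians of the 2-replicate means and lines join the medians of the 2 single replicates, which need not enclose the dot. The Crt1-repressed genes lie at -0.054 in crt1 and 2.09 in wt, whereas the proteasome genes lie at 0.98 in crt1 and 0.89 in wt.

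The same crt1 replicates were also set against sml1, tel1, chk1 and ste11, whose 8 replicate values hold no wt array. Those strains were picked because an earlier result of these data had called at most 1 gene between each of them and wt. There 19 genes were called lower (0.34%) and 2 higher (0.0358%), 0.375% together. With that choice and the same crt1 arrays, this is no independent repeat of the comparison with wt. RNR3 stood at -4.18, HUG1 at -4.57, ATR2 at -2.29 and RNR2 at -1.31. RNR4 did not pass (-1.36, SE 0.335, adjusted p 0.125).

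Of the 21 genes called there, 7 did not pass against wt, where their values had the same sign; they were named after their values were seen. ECL1 (YGR146C), which affects chronological lifespan, differed by -0.84 from the 4 strains (adjusted p 0.00524) and by -0.58 from wt (adjusted p 0.406). RAD16 (YBR114W), a nucleotide excision repair helicase, differed by -0.53 (adjusted p 0.00812) and by -0.50 (adjusted p 0.138), with a called rise of 0.34 ± 0.11 left in crt1. The metal transporter genes MMT1 (YMR177W) and SMF3 (YLR034C) differed by -0.55 and -0.46 from the 4 strains, and by -0.55 and -0.42 from wt. YJL028W and YDL129W differed by -0.67 and -0.58 from the 4 strains, against -0.73 and -0.40 from wt. YNL195C was higher, at 1.26 ± 0.35 in crt1 against 0.73 ± 0.27 in wt (SD, n = 2 each), by 0.63 over the 4 strains (adjusted p 0.0405). This count was 125 without crt1 replicate 1 and 13 without crt1 replicate 2.

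Dun1 is the kinase directly upstream of Crt1, and RNR3 and HUG1 had lower ratios in crt1 than in dun1. RNR3 averaged -0.041 ± 0.038 in crt1 and 1.29 ± 0.32 in dun1 (SD, n = 2 each), a difference of -1.33 (adjusted p 3.77e-05). HUG1 averaged -0.035 ± 0.059 in crt1 and 1.49 ± 0.034 in dun1, a difference of -1.53 (adjusted p 3.16e-06). Of all genes 0.501% were called higher and 0.197% lower, 0.697% together, and of the 15 genes 9 were called lower and ASH1 higher, with the same crt1 arrays as in the comparison with wt. RNR2, RNR4, RFX1, FIS1 and FSH3 did not pass, with RNR2 at -0.15 in crt1 and 0.33 in dun1 and RNR4 at -0.054 in crt1 and 0.51 in dun1.

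In ATR2, PUT4, GUP2, AMF1 and YDL085C-A the lower ratio in crt1 than in dun1 came with a called fall in crt1. On arrays of a single dye that fall was not called for AMF1 with MMS in Cy5 (-0.50, adjusted p 0.0504). For YDL085C-A it was not called with MMS in Cy3 (-0.37, adjusted p 0.14). GUP2 averaged -0.91 in crt1 and -0.11 in dun1, AMF1 -0.77 in crt1 and -0.079 in dun1, and YDL085C-A -0.61 in crt1 and 0.028 in dun1. ATR2 averaged -0.83 in crt1 and 0.11 in dun1, a difference of -0.94 (adjusted p 0.00110), and PUT4 averaged -1.96 in crt1 and -0.33 in dun1, a difference of -1.63 (adjusted p 4.43e-04). One dun1 array, replicate 2 in its MMS-in-Cy5 orientation, stood apart from its group, with DUN1 at 2.71 and MEC1 at -2.34, against -0.24 to -0.11 and -0.54 to -0.21 on the other dun1 arrays. Without it, 68 genes were called in place of 39, RNR3 differed by -1.50 and HUG1 by -1.71, and of the 15 genes 11 were called lower and none higher.

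Across the 12 other strains the called genes differed in where crt1 stood. ATR2, AMF1 and IRC19 were lower in both crt1 replicates than in all 24 other replicate values. ATR2 had its lowest value outside crt1 at -0.16, in rad53 replicate 1, and IRC19 at 0.076, in tel1mec1 replicate 1. For AMF1 the margin was narrow, at -0.62 in tel1mec1 replicate 1 against -0.70 in crt1 replicate 2. These genes were picked for a low response in crt1 against wt, so their rank is in part set by that choice. For RNR3, HUG1 and RNR4 both crt1 replicates were below 16 of the 24 values, and the strains without Rad53 or without both Tel1 and Mec1 lay lower: RNR3 averaged -0.59 in rad53 and -0.62 in tel1mec1, and HUG1 -0.56 in rad53 and -0.58 in tel1mec1. PUT4 reached -2.02 ± 0.54 in rad53, near its value of -1.96 ± 0.22 in crt1, and lay between -1.03 and -0.31 in the other 11 strains (SD, n = 2 each). These are descriptions, and only the comparisons with wt, dun1 and the 4 pooled strains were tested.

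**Figure D5:**
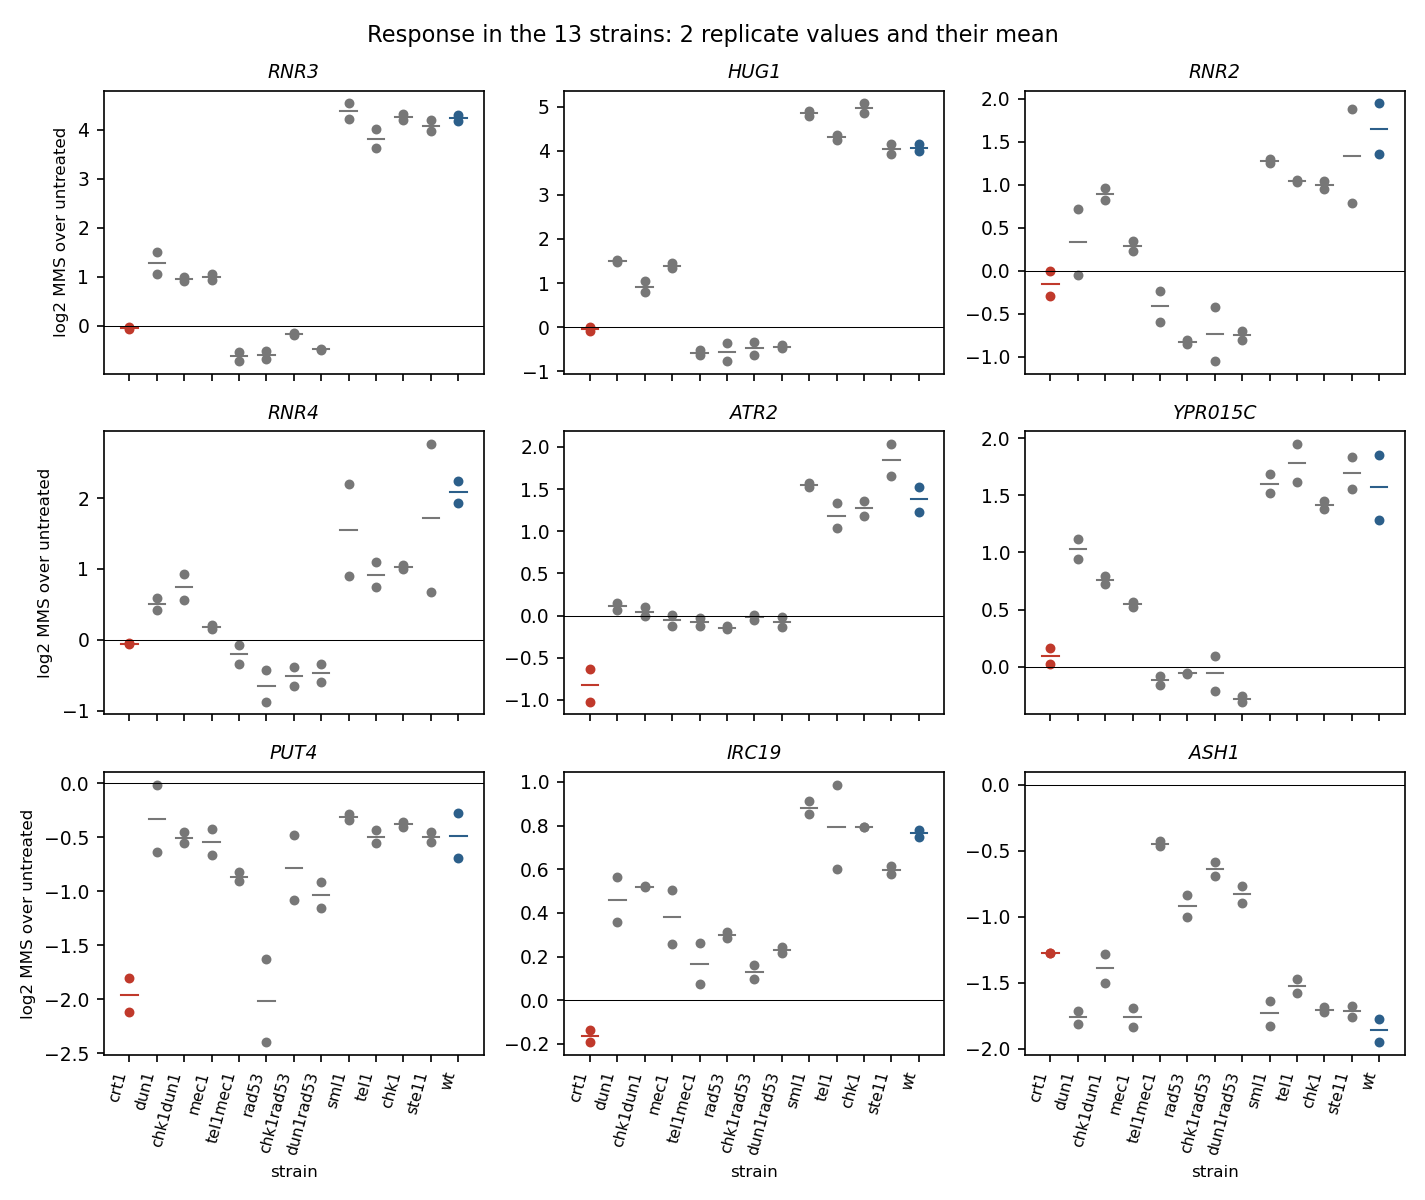
Log2 MMS over untreated (vertical axis, scaled per panel) of 9 called genes in the 13 strains, crt1 at the left in red and wt at the right in blue; points are 2 replicate values and lines their means. ATR2 and IRC19 are lowest in crt1, RNR3 and HUG1 are near 0 in crt1 and lower still in rad53 and tel1mec1, and RNR4 spreads widely in sml1 and ste11.

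The genes whose ratios ran most like RNR3 over the 26 replicate values of all strains were HUG1 (Pearson r 0.992), YPR015C (0.953), RAD16 (0.940), FIS1 (0.937) and ATR2 (0.924). These are descriptions: the values share strains, and the strains with a high RNR3 ratio stand apart from the others. Of these genes HUG1, YPR015C and FIS1 were called lower in crt1 than in wt, as was ATR2, while RAD16 was not. The crt1 and wt values were among the 26, so the choice of these genes and their calls are not independent.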

How the data were processed

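Expression ratios were measured on 2-colour oligonucleotide arrays of yeast poly(A) RNA, MMS-treated against untreated cells of the same strain. The deposited values, read here as log2 ratios of Cy5 over Cy3, had been normalized by the authors with limma, per the submitters' processing notes (version not given in the sources used here). Base 2 is an assumption, since the labels give neither base nor centring; the medians of the 52 arrays lie between -0.0183 and 0.0211. The sign was turned on every array that had its MMS sample in Cy3, and the 2 arrays of a replicate number averaged, which gave 26 replicate values. Of 6269 probes, 5620 carried 1 gene symbol, all matched to RefSeq, and 649 none. Probes of a gene were averaged (25 genes had over 1 probe), leaving 5594 genes and no missing value. No intensities were used here, so no filter on dim probes was possible, and 4 arrays per strain limit the precision.

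A limma model (version 3.58.1, R 4.3.3) fitted 1 mean per strain over 13 strains, with eBayes and Benjamini-Hochberg adjustment over all genes. It was tried on simulated data with independent normal noise and no dye, array or slide effect. That run does not check how the model handles such effects in these data. Contrasts were crt1 minus wt, each strain against 0, crt1 minus the mean of sml1, tel1, chk1 and ste11, and crt1 minus dun1. Alternatives changed the scaling, the unit, the dye, the slide, the replicate block, the samples and the prior. The comparison, its genes and the 26 gene lists were chosen with earlier results of these data known. Genes were named by rule: the 15 lowest and 15 highest called genes whose replicates did not overlap, all members of the lists of reductase subunits, its inhibitors and Crt1-repressed genes, up to 4 members of each other list by size of response in crt1 plus any called, the 5 highest and 5 lowest in crt1, the deleted genes, and the 5 genes most like RNR3. Some listed genes were not analysed here. Neighbours came from RefSeq R64 gene order, and no coordinates are given because the files name no build.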

Additional observations from a re-analysis of the deposited data

Results flagged for a closer look

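Among the genes called between crt1 and wt, 4 had called responses of opposite sign in the strains. A called difference was a condition of this choice, and genes with opposite responses but no called difference were not counted. Crt1 minus wt was -2.208 for ATR2, -1.203 for GUP2, -1.128 for AMF1 and -0.935 for YDL085C-A. For ATR2, GUP2 and YDL085C-A all crt1 arrays lay below 0 and all wt arrays above it, whereas AMF1 was at -0.31 on 1 wt array. The rise in wt lost its call for GUP2 without either wt replicate (adjusted p 0.104 and 0.127), for AMF1 without wt replicate 2 (0.429) and for YDL085C-A without wt replicate 1 (0.156), so both responses stayed called for ATR2 alone.

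Single arrays lay far from the other 3 of their strain in 8 of the 38 gene and strain groups examined. Chance gives about 1 in 20 for 4 independent values; these arrays are 2 dye-swap pairs, for which the rate was not tested. On the crt1 arrays these were -0.043 for FSH3, -1.380 for PUT4, -0.360 for RFX1, -0.027 for RNR4, 0.209 for WTM1 and -1.244 for YDL085C-A. The crt1 replicate 2 array with MMS in Cy5, the array with the widest spread, gave the PUT4, WTM1 and YDL085C-A values. On the wt arrays they were 1.407 for FIS1 and 1.972 for RNR1, both from the wt replicate 2 array with MMS in Cy5. The RNR4 value stood apart within a range so narrow that all 4 crt1 arrays lay between -0.07 and -0.03.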

How the results depend on the processing

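The 15 called genes kept their sign under all 18 alternatives run for single genes, and RNR3, HUG1, ATR2 and YPR015C kept their call in each; RNR3 lay between -4.49 and -3.12 and HUG1 between -4.51 and -2.97. The count of 15 became 25 with arrays as the unit, a dye term and strain by replicate number as a random block, 4 with the slide as a fixed block, 6 on arrays with MMS in Cy3 and 8 on arrays with MMS in Cy5 (the last 3 fits use fewer arrays or more terms). Leaving out 1 replicate gave 12 to 82. With the replicate number as a block the count was again 15, with the same genes, and against the 4 pooled deletions it was 18 in place of 21; the labels share only a number, and the deviations of same-numbered crt1 and wt replicates correlated at -0.050 over genes for the 2 pairs.

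Without the crt1 replicate 2 array with MMS in Cy5, or without it and wt replicate 1, both chosen after seeing the data, the count was 15 and 11. The response in crt1 was called for 1795 genes on arrays with MMS in Cy3, and for 1774 to 2998 with 1 replicate, or wt replicate 1 and that array, left out. Against the 4 pooled deletions 21 calls became 12 with arrays scaled to 1 spread, 9 on arrays with MMS in Cy3, 39 and 48 with those array exclusions, and 13 to 125 with 1 replicate left out. Against dun1, 39 became 68 without the dun1 array that stood apart from its group. Over the other settings that kept both crt1 and both dun1 replicates, the count ran between 1 (MMS in Cy5 alone) and 90. The latter had arrays as the unit and strain by replicate number as a random block. With the slide as a fixed block the responses and the comparison with the pooled deletions could not be estimated.

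Signs turned only for values that were not called. Crt1 minus wt for SML1 was -0.1147 (slide as a fixed block) and -0.2342 (MMS in Cy5), and -0.1282 to 0.3002 with 1 replicate left out. For WTM1 it was -0.1396 (slide as a fixed block), -0.1134 (MMS in Cy3) and -0.05082 (without the crt1 array), and -0.1819 to 0.2093 with 1 replicate left out. In crt1, HUG1 lay between -0.07624 and 0.006624 with 1 replicate left out, SML1 was 0.009099 (scaled), 0.1516 (MMS in Cy3) and 0.1534 (both array exclusions) and as low as -0.01279 with 1 replicate left out, and WTM1 was -0.03674 (MMS in Cy3) and -0.03338 (both array exclusions), between -0.01739 and 0.07966 with 1 replicate left out. In wt, DIF1 was 0.2857 (MMS in Cy5) and 0.09292 (without wt replicate 1), SML1 0.06719 and 0.1205, and WTM1 -0.04178 and -0.1782, with WTM1 at -0.01402 scaled; with 1 replicate left out DIF1 reached -0.3002, SML1 -0.3079 and WTM1 0.2131. The cause of these changes was not tested. With all 6269 probes 15 were called, 0 of them among the 649 unnamed by limma, where 112 had an unadjusted p under 0.05. The 2 replicates of a strain limit what can be called, and the 95% interval of a difference had a median half-width of 0.28.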
